A study of Mus musculus with 32 samples.

Results

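Mouse embryonic fibroblasts that received only the solvent DMSO were compared after 24 h and after 4 h. The comparison takes 16 of the 32 RNA-seq libraries of the study: 8 from 24 h and 8 from 4 h, chosen by their treatment and time labels, with 2 replicates in each of 4 lines. The lines are a wild type named wtATM and a knock-out of Atm (here ATMko), and a wild type named wtATMIN and a knock-out of Atmin (here ATMINko). Atm encodes a protein kinase that signals DNA double-strand breaks, and Atmin encodes a zinc-finger protein that binds the ATM kinase and acts as a transcription factor. All groups were grown in DMEM with fetal calf serum and antibiotics, and all 16 libraries carry the solvent; the other 16 libraries carried aphidicolin, an inhibitor of the replicative DNA polymerases. Each genotype is represented by 1 line, and the labels do not give the knock-out alleles, the origin of the replicates or the age of the embryos. P-values therefore measure the spread between these samples, which may be technical. The labels give no library date and no sample from before DMSO was added, so hours in culture and anything else that separated the 4 h from the 24 h libraries cannot be told apart.

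Several groups of genes that bear on hours in culture work in well-known ways. Replication-dependent histone mRNAs are made in S phase and end in a conserved stem-loop in place of a poly(A) tail. Interferon-stimulated genes encode antiviral proteins and are switched on by STAT and IRF factors at a short repeated GAAA element. Glycolytic enzymes and several of their regulators are targets of the hypoxia-inducible factor. Circadian clock genes in fibroblasts cycle in loops of activators (Arntl, Clock) and repressors (the Per, Cry and Nr1d genes).

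The total count per DMSO library was 13678896 to 21020662, with 20083 to 21633 genes holding at least 1 read. Replicates of a group correlated at 0.9911 to 0.9944 across genes (Pearson r of log2 CPM, the count scaled to library size), and in every pair they differed by more than counting noise. The first 2 principal components, with 31.9% and 31.4% of the variance, followed the lines; the third, with 14.9%, placed all 8 libraries from 4 h on one side and all 8 from 24 h on the other. The targeted genes were lower in their knock-outs at both times. Atm was at 21.4 ± 5.29 CPM (SD, n = 2) in ATMko against 51 ± 1.48 in wtATM at 4 h, and at 32.9 ± 0.124 against 64.1 ± 0.744 at 24 h. Atmin was at 4.73 ± 0.109 CPM in ATMINko against 25.1 ± 0.763 in wtATMIN at 4 h, and at 5.41 ± 0.409 against 20.4 ± 0.155 at 24 h. All 13 fibroblast markers passed the filter on low counts, and their summed level was 12200 to 31100 CPM at 4 h and 11300 to 25900 at 24 h. Blood markers summed to 20.2 to 33 CPM at 4 h and 22.2 to 35.2 at 24 h, with no read for Adgre1 and Tyrobp. Endothelial markers summed to 8.73 to 18.7 and 3.33 to 28.7 CPM, with no read for Tie1 and Emcn. Epithelial markers summed to 90.4 and 96.9 CPM at 4 h and 244 and 240 at 24 h in wtATM, and to 0.498 to 16.7 in the DMSO libraries of the other lines; Krt14, a keratin, was at 79.7 and 84.5 and then 224 and 218 CPM in wtATM. Of 12 epithelial markers 5 passed the filter. Krt14 was the 1 called higher over all lines (log2 difference 1.36), while Krt19 (-1.09) and Krt8 (-0.87) were lower. In wtATM, Krt8 went from 3.92 and 4.85 CPM to 1.69 and 1.04. Neural markers, 5 of 11 of which passed the filter, summed to 249 to 419 CPM at 4 h and 107 to 217 at 24 h without overlap. Of these Nes, the intermediate filament nestin, fell from 167, 252 and 328 CPM to 84.3, 97.9 and 136, a log2 difference of -1.25 (SE 0.07, adjusted p = 1.6e-10). Muscle markers summed to 66.1 to 77.7 CPM in wtATM and 3.33 to 9.38 in the other lines. Adipocyte markers went from 14.4 and 14.5 CPM to 43.3 and 42.9 in wtATMIN, and were at 2.43 to 4.24 in wtATM, 35.9 to 44.7 in ATMko and 105 to 117 in ATMINko. The part of these marker levels in other differences was not tested. In bulk RNA, fewer cells of a type and less RNA per cell cannot be told apart.

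With the line as an additive factor, 10924 of 17720 tested genes (61.6%) differed between the times (edgeR's quasi-likelihood test, Benjamini-Hochberg adjusted p under 0.05). At 24 h 5613 of them (31.7%) were higher, and 5311 (30%) were lower. With library sizes alone in place of the trimmed mean of M-values (TMM), which shifted the median of all genes by 0.11 on the log2 scale, the split was 6951 higher and 4081 lower. A change of at least 2-fold was reached by 971 higher genes (5.48%) and 1162 lower genes (6.56%). In single lines 8953 genes differed in wtATM (50.5%), 9296 in ATMko (52.5%), 10546 in wtATMIN (59.5%) and 9112 in ATMINko (51.4%). By direction, 4330 genes rose and 4623 fell in wtATM (24.4% and 26.1%), 4721 and 4575 in ATMko (26.6% and 25.8%), 5563 and 4983 in wtATMIN (31.4% and 28.1%), and 4386 and 4726 in ATMINko (24.8% and 26.7%). Called alike in the additive fit and in all 4 lines were 1887 higher genes (10.6%) and 2026 lower genes (11.4%). For 703 genes (3.97%) all 8 values at 24 h lay above all 8 at 4 h, and for 869 (4.9%) all lay below. Across genes, the log2 differences of any pair of lines correlated with a Pearson r of 0.49 to 0.575; genes are not independent replicates. All adjusted p-values that follow come from the same test, a log2 difference is always 24 h minus 4 h, and CPM values are TMM-normalised with the lowest, median and highest of the 8 libraries of a time given in that order.

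Ribosomal and other non-polyadenylated RNAs fell steeply between the times. All 8 tested members of a list of such RNAs fell by at least 2-fold, with a median log2 difference of -4.95 (-4.26 in a fit with offsets for GC content and transcript length), beside 0.02 over all tested genes. Gm42418, a locus annotated as a lincRNA on chromosome 17 that overlaps ribosomal RNA sequence, lay at 13600, 15100 and 41200 CPM at 4 h and at 250, 439 and 2350 at 24 h, so the times did not overlap. Its log2 difference was -4.57 (SE 0.65, adjusted p = 6.44e-05). The highest value came from wtATM replicate 1 at 4 h, where replicate 2 held 16800 CPM. By line the difference was -6.54 in wtATM, -3.51 in ATMko, -3.67 in wtATMIN and -4.76 in ATMINko. Its call in ATMko was lost without ATMko replicate 1 at 24 h (-2.69) or either replicate at 4 h (-3.50 and -3.54), with the replicate number as a block (-4.15), with those offsets (-2.91) and with both (-3.58), in wtATMIN without replicate 2 at 24 h (-2.87) or at 4 h (-3.55) or with block and offsets (-3.86), and in ATMINko without either replicate at 24 h (-4.81 and -4.71).

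Rmrp, the RNA of the mitochondrial RNA processing ribonuclease, went from 16.5, 26.2 and 123 CPM to 0.119, 0.275 and 1.79, a log2 difference of -5.77 (SE 0.59, adjusted p = 2.93e-06). Rn7s1, Rn7s2 and Rn7s6, copies of the signal recognition particle RNA, differed by -5.55, -5.52 and -5.45, and Rn7sk, the RNA that holds the elongation factor P-TEFb in an inactive complex, by -4.72. The 3 signal recognition particle copies are near-identical, so the split of reads between them is uncertain. Mir6236 differed by -4.40 and Gm26917, which lies next to Gm42418, by -5.19. Of 44 tested genes annotated as ribosomal RNA, 40 were lower and 0 higher. The mitochondrial ribosomal RNAs, named after their values were seen, also fell, with -1.65 for mt-Rnr1 and -1.30 for mt-Rnr2, in the opposite direction to the mitochondrial mRNAs. The non-polyadenylated list summed to 17500 to 53100 CPM before normalisation at 4 h and 402 to 3730 at 24 h, and to 20800 to 118000 and 485 to 9310 in the aphidicolin libraries of the same times. Its part in the differences of other genes was not tested; in a fit to protein-coding genes only, 4157 genes were higher and 4072 lower.

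**Figure D1:**
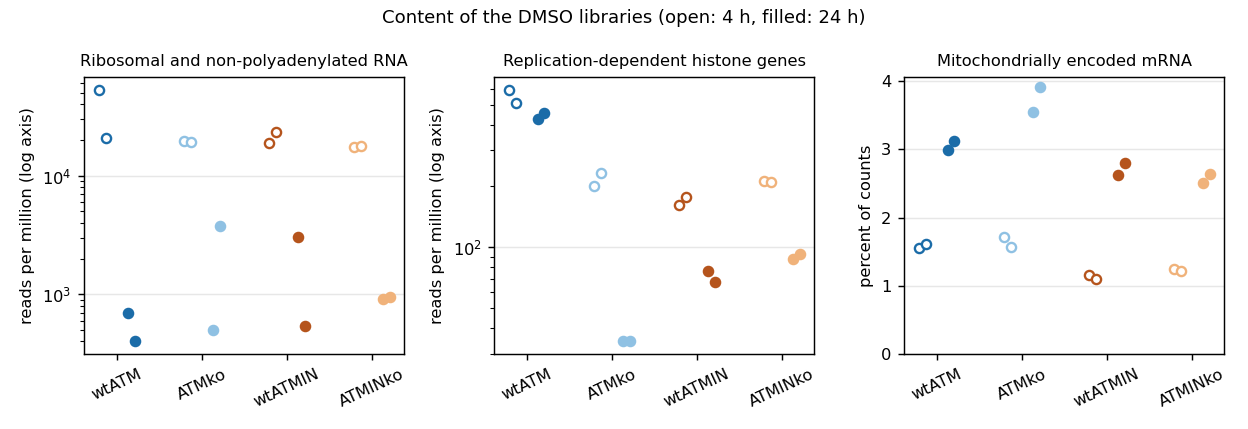
Unnormalised CPM of ribosomal and other non-polyadenylated RNA (left, log axis) and of replication-dependent histone genes (middle, log axis), and percent of counts in mitochondrially encoded mRNA (right), for each of the 16 DMSO libraries by line; open points are 4 h and filled points 24 h. The non-polyadenylated sum is 17500 or more at 4 h and 3730 or less at 24 h, and the mitochondrial share is 1.1% to 1.72% at 4 h and 2.5% to 3.92% at 24 h.

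The differences also followed base composition. Among 11488 protein-coding genes, divided into 10 bins of equal size by the GC content of the transcript, the lowest bin (31% to 41.2%) had a median log2 difference of 0.54, with 79.6% of its genes higher and 4.7% lower. The highest bin (57.9% to 74.7%) had a median of -0.30, with 8.18% higher and 59.9% lower. Each line showed the same order: the medians of the lowest and highest bins were 0.54 and -0.34 in wtATM, 0.66 and -0.44 in ATMko, 0.53 and -0.25 in wtATMIN, and 0.37 and -0.26 in ATMINko. In the aphidicolin libraries the same contrast gave 0.42 and -0.21. Spearman's rho of the log2 difference with GC content was -0.497 across genes, and with transcript length 0.06. A fit with each library's smooth trend on GC content and length taken out as an offset, chosen after the data were seen, called 10227 genes (57.7%), 5499 higher (31%) and 4728 lower (26.7%). Of the 10924 genes called without offsets, 7850 were called alike with them (44.3% of tested genes) and 374 were called the other way (2.11%). Counts or medians with the offsets are given beside each group of genes for that reason; whether the trend arose in the cells or in library preparation was not tested.

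**Figure D2:**
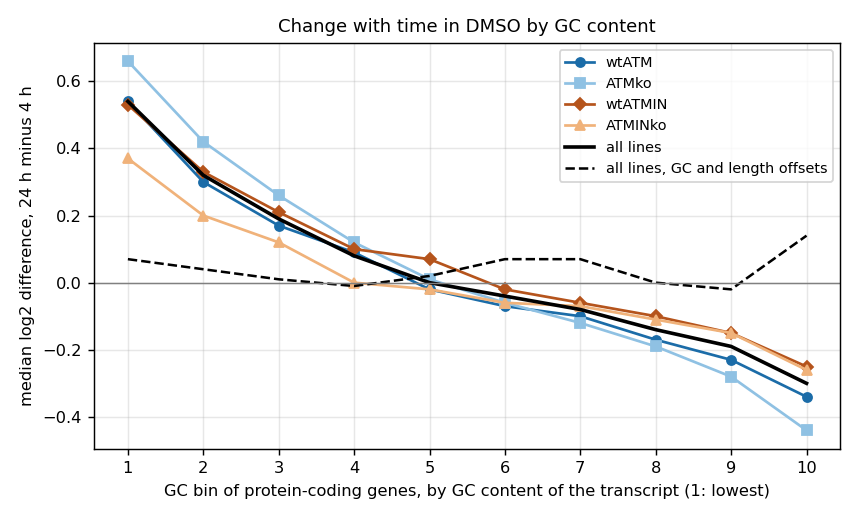
Median log2 difference between 24 h and 4 h for protein-coding genes in 10 bins of transcript GC content, for each line (coloured lines), all lines together (solid black) and all lines with GC and length offsets (dashed). The medians run from 0.54 in the lowest bin to -0.30 in the highest without offsets, and from 0.07 to 0.14 with them.

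Replication-dependent histone genes fell as a group. Of 58 tested, 53 were lower, 47 of them by at least 2-fold, and 1 was higher, beside 30% lower and 31.7% higher among all genes. Their median log2 difference was -2.33, and 41 were lower in all 4 lines. With the GC and length offsets 49 were lower and 2 higher, with a median of -1.69. The median GC content of the group was 58.9%, against 49.7% over all tested genes. The list of ribosomal and other non-polyadenylated RNAs fell over the same hours (median -4.95). Whether the fall of the histone genes arose in the cells or in library preparation was not tested.

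Many of these transcripts carry the histone stem-loop, shown here because it is the feature that sets the group apart from polyadenylated mRNA. A search of the GENCODE M21 transcripts for 16 bases made of a stem of 6 that starts with GG, a loop of 4 that starts with TT and the reverse complement of the stem found it in 38 of the 58 tested histone genes, and in 127 of 17370 tested genes with a transcript sequence (0.731%). The commonest forms follow, with the pairing stem in capitals.

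Hist1h2ap and 21 other genes: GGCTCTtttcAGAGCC

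Hist1h4c and 6 other genes: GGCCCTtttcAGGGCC

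Hist1h2bb and 3 other genes: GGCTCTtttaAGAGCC

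Among the genes with a stem-loop in an annotated transcript, 36 of 38 were lower, with a median of -2.33. Among the others, 17 of 20 were lower, with a median of -2.17; a missing match says only that these letters are not in the annotated transcripts. The GG-starting stem is a description of the annotation, not of the 3' ends present in these cells.

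Hist1h2ap, an H2A gene, was at 6.87, 16.9 and 23.8 CPM at 4 h and 0.241, 0.487 and 1.04 at 24 h. The times did not overlap, and the log2 difference was -4.84 (SE 0.19, adjusted p = 4.83e-12), with -4.16 in wtATM, -5.84 in ATMko, -4.74 in wtATMIN and -4.83 in ATMINko. Hist2h3b, an H3 gene, went from 2.69, 3.91 and 10.5 CPM to 0, 0.126 and 0.381, a difference of -4.84 (SE 0.27, adjusted p = 1.96e-10). The H2A genes Hist1h2ak (-4.13), Hist1h2af (-3.89), Hist1h2ao (-3.74) and Hist1h2ae (-3.32) also fell. Histone genes of a class are near copies, so the reads of single genes may be shared. The 1 higher gene was Hist2h2be, an H2B gene, at 0.85 (SE 0.18, adjusted p = 0.000634). The summed histone level was 162 to 595 CPM before normalisation at 4 h and 34.5 to 456 at 24 h, so the sums overlapped. Within each line both 24 h sums were below both 4 h sums. They went from 595 and 510 to 429 and 456 in wtATM, and from 199 and 232 to 34.7 and 34.5 in ATMko. In wtATMIN they went from 162 and 177 to 76.7 and 67.4, and in ATMINko from 211 and 210 to 87.6 and 92.3.

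Genes for DNA replication showed smaller differences than the histones. Of the replication list below 40.7% were higher and 24.1% lower, and of the G2 and mitosis list 48% and 20%. The shares of all tested genes were 31.7% and 30%. Of 54 replication and E2F target genes, 22 were higher and 13 lower, with a median log2 difference of 0.04, against 23 and 10 with offsets and 30 and 8 with library sizes alone (median 0.15). Pole2, a subunit of the leading-strand polymerase, rose from 19.2, 22.8 and 33.3 CPM to 34.5, 43.6 and 53, a difference of 0.85 (SE 0.05, adjusted p = 6.23e-10), and Mcm4, a subunit of the replicative helicase, rose by 0.54 (SE 0.04, adjusted p = 2.1e-09). Orc6, of the origin recognition complex, and Tyms, thymidylate synthase, rose by 0.60 and 0.42. Of 50 genes of G2 and mitosis, 24 were higher and 10 lower (median 0.14); with offsets the counts were 17 and 14 (median -0.03), and with library sizes alone 28 and 6. Kif18a, a mitotic kinesin, rose by 1.03 (SE 0.09, adjusted p = 4.66e-08) and was the only member past 2-fold, Cdk1, the mitotic kinase, by 0.46 (SE 0.03, adjusted p = 6e-09), and Cdc25c and Nusap1, a phosphatase and a spindle protein of mitosis, by 0.49 and 0.63. These rises were smaller with offsets: 0.53 for Kif18a, 0.41 for Cdk1, 0.24 for Cdc25c and 0.27 for Nusap1. In the aphidicolin libraries, 50 of the 50 were higher at 24 h than at 4 h, with a median of 0.82; of all 18115 genes tested there 63.8% differed, 32.9% higher and 30.9% lower.

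Over all lines, most interferon-stimulated genes rose in the DMSO cultures, 74.4% beside 31.7% of all tested genes. In wtATM alone the share that rose was near that of all genes. Of 43 tested, 32 were higher, 21 of them by at least 2-fold, and 2, Irgm1 (-0.95) and Isg20 (-0.34), were lower. The median log2 difference was 0.89, and 0.98 with offsets, where 32 were higher and 1 lower. The lines differed in extent: 12 were higher and 4 lower in wtATM (median 0.28), 20 and 1 in ATMko (0.65), 29 and 4 in wtATMIN (0.90), and 34 and 1 in ATMINko (1.35). The higher genes were 27.9% of the list in wtATM, 46.5% in ATMko, 67.4% in wtATMIN and 79.1% in ATMINko. Among all tested genes the higher shares were 24.4%, 26.6%, 31.4% and 24.8% in that order. The change differed between lines in 31 of the 43 by the interaction test, which 44.2% of all genes passed. In aphidicolin 38 were higher and 1 lower over the same hours, with a median of 2.00.

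The element that interferon-activated factors recognise is shown for Ifit1 and Isg15, both higher at 24 h, in the 250 bases before each annotated start (RefSeq sequences, build GRCm38.p6, strand of the gene, 5' to 3'). The motif of GAAA, any 2 bases and GAAA again was searched on both strands, and capitals mark each match, also where matches overlap. Ifit1 (chr19:34640639-34640888, plus strand) has 2 matches and Isg15 (chr4:156200819-156201068, minus strand) has 3.

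Ifit1: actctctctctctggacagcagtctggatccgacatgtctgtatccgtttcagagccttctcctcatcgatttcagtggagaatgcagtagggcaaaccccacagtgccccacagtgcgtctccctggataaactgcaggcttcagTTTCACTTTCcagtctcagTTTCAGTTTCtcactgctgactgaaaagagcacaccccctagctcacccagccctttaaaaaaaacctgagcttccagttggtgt

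Isg15: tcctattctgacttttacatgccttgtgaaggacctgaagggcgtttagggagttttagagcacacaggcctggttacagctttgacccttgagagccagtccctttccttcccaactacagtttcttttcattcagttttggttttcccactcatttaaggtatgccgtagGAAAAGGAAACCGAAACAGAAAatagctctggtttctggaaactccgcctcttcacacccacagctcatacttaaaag

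A match was present in 14 of the 33 tested interferon-stimulated genes with a promoter sequence (42.4%), and in 345 of 11088 tested genes with one (3.11%). Within the list it did not separate the genes that rose: 10 of 24 higher genes (41.7%) and 4 of 9 others (44.4%) held it. A match is a description of the sequence, not a site in use.

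Ifit1, which encodes a protein that binds viral RNA 5' ends, was at 0.32, 2.27 and 3.96 CPM at 4 h and 0.692, 8.11 and 28.3 at 24 h. The times overlapped, but within each line both 24 h values were above both 4 h values. The log2 difference was 2.10 (SE 0.21, adjusted p = 3.38e-07). By line it was 1.12 in wtATM, 2.12 in ATMko, 1.34 in wtATMIN and 3.01 in ATMINko (interaction adjusted p = 6.51e-06). The wtATM value had an adjusted p of 0.0488, rested on 10 reads at 4 h and 28 at 24 h, and was not called with offsets (0.81) or with any of the 4 wtATM libraries left out (0.94 to 1.27). ATMINko exceeded wtATMIN in this change by 1.67 (adjusted p = 2.75e-06), and ATMko exceeded wtATM by 1.00 (adjusted p = 0.308).

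Oasl2, an oligoadenylate synthetase-like protein, went from 0.08, 0.827 and 1.59 CPM to 0.461, 2.42 and 13.3, a difference of 2.43 (SE 0.29, adjusted p = 2.24e-06), with 2.57 in wtATM, 1.43 in ATMko, 1.67 in wtATMIN and 3.56 in ATMINko. Its call in wtATM was lost without wtATM replicate 1 at 24 h (2.03) and its call in ATMko without ATMko replicate 1 at 4 h (0.92). Ddx58, the viral RNA sensor RIG-I, rose by 0.86 (SE 0.10, adjusted p = 1.2e-06), and Eif2ak2, the kinase PKR, by 0.49 (SE 0.06, adjusted p = 3.31e-06). Isg15, a ubiquitin-like protein, was named after its values were seen and rose by 1.42 (SE 0.18, adjusted p = 3.32e-06).

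**Figure D3:**
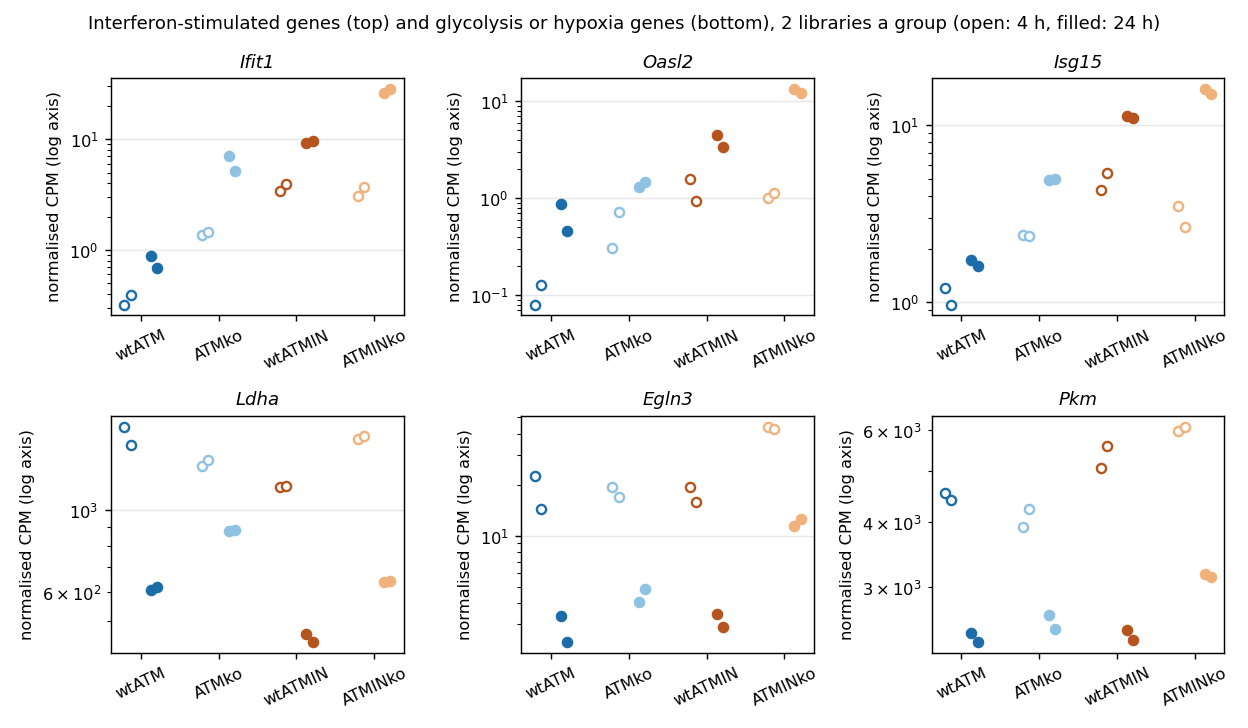
Normalised CPM (log axes) of Ifit1, Oasl2 and Isg15 (top) and of Ldha, Egln3 and Pkm (bottom) in each DMSO library by line; open points are 4 h, filled points 24 h, 2 libraries a group. Ifit1 reaches 28.3 CPM in ATMINko at 24 h and stays at or below 0.872 in wtATM, while Ldha is at 1150 or more at 4 h and at 880 or less at 24 h in all lines.

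Most genes of glycolysis and the hypoxia response fell. Of 33 tested, 27 were lower and 1, the histone demethylase gene Kdm3a (0.51), was higher; the median log2 difference was -0.71. With offsets 26 were lower and 1 higher (median -0.58). The counts were 29 lower and 0 higher in wtATM, 18 and 5 in ATMko, 26 and 3 in wtATMIN, and 28 and 1 in ATMINko, with 16 lower in all 4. The medians were -0.79, -0.27, -0.87 and -0.93 in the same order of lines, and the change differed between lines in 32 of the 33 genes.

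Ldha, lactate dehydrogenase A, was at 1150, 1430 and 1680 CPM at 4 h and 439, 627 and 880 at 24 h, without overlap. Its difference was -1.16 (SE 0.09, adjusted p = 1.53e-08), with -1.37 in wtATM, -0.61 in ATMko, -1.36 in wtATMIN and -1.29 in ATMINko; the fall in ATMko was smaller than in wtATM by 0.76 (adjusted p = 3.06e-08), and the ATMINko and wtATMIN values differed by 0.07 (adjusted p = 0.599). Ldha was named after its values were seen. Pkm, pyruvate kinase, fell from 3910, 4810 and 6090 CPM to 2350, 2480 and 3170, a difference of -0.91 (SE 0.06, adjusted p = 7.23e-10). Hk1, hexokinase 1, changed by -0.81. Egln3, an oxygen-sensing prolyl hydroxylase that is itself induced by hypoxia, went from 14.3, 19.3 and 44 CPM to 2.36, 3.74 and 12.6, a difference of -2.22 (SE 0.13, adjusted p = 4.2e-10). Car9, the hypoxia-induced carbonic anhydrase, ranged from 0.247 to 103 CPM between lines at 4 h and changed by -2.71 (SE 0.19, adjusted p = 1.07e-08).

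Genes often used as references in expression assays changed too, and were named after their values were seen. Gapdh, the glycolytic dehydrogenase, changed by -0.81 (SE 0.09, adjusted p = 5.26e-07) and Actb, cytoplasmic beta-actin, by -1.22 (SE 0.05, adjusted p = 8.44e-12). Actb was at 4000, 5100 and 5890 CPM at 4 h and 1500, 2270 and 2650 at 24 h, without overlap. Tbp, the TATA-binding protein, rose by 0.19 (SE 0.05, adjusted p = 0.00301), and that call was lost with offsets (0.10).

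**Figure D4:**
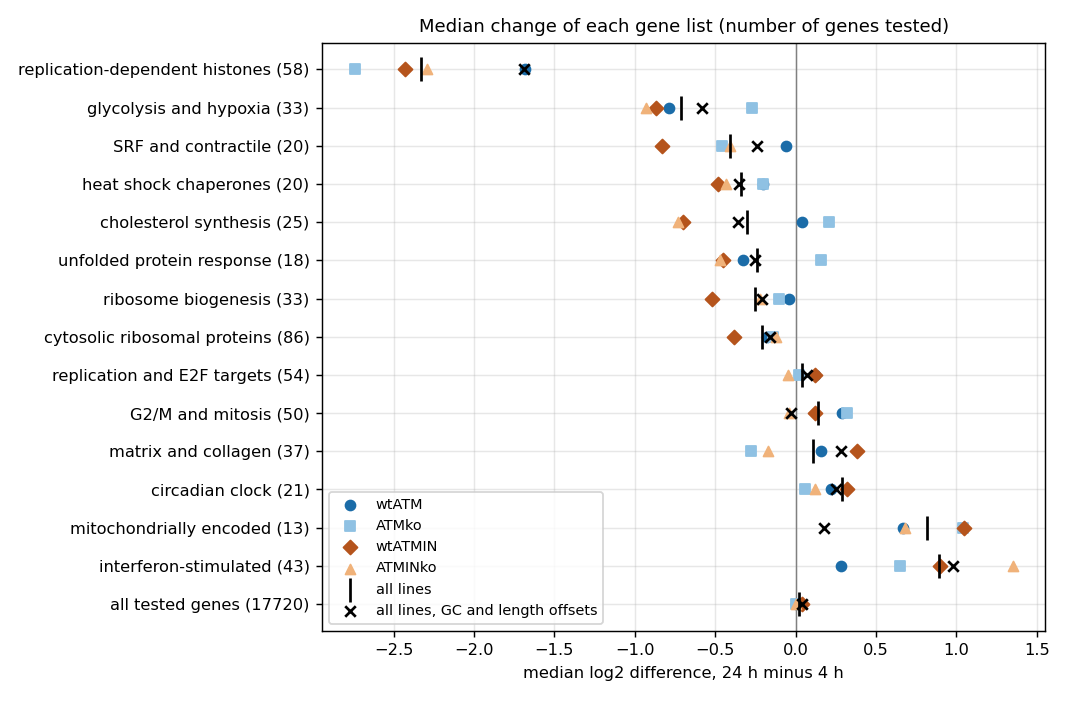
Median log2 difference between 24 h and 4 h of 14 gene lists and of all tested genes, with the number of genes tested in brackets; coloured symbols are single lines, vertical bars the additive fit and crosses the additive fit with GC and length offsets. Histone genes are at -2.33 and interferon-stimulated genes at 0.89 in the additive fit, with all tested genes at 0.02.

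Transcripts of the translation machinery fell in part. Of 86 cytosolic ribosomal protein genes, 52 were lower and 13 higher, with a median of -0.21, and 47 and 17 with offsets (median -0.16) or 41 and 19 with library sizes alone. Rps2 fell from 1720, 2020 and 2780 CPM to 741, 995 and 1290, a difference of -1.12 (SE 0.07, adjusted p = 7.44e-10), and Rpl35a and Rps28 changed by -0.90 and -0.93. Rps27 went the other way, from 106, 116 and 185 CPM to 212, 233 and 402, a difference of 0.99 (SE 0.05, adjusted p = 1.5e-10). Ribosomal protein genes have many processed pseudogenes, which the counting may have given part of their reads. Of 33 ribosome biogenesis genes 19 were lower and 5 higher (Nop58, Gnl3, Noc4l, Noc3l and Nop56), with a median of -0.25, and 20 and 4 with offsets (-0.21). Ubtf, the upstream binding factor of RNA polymerase I, changed by -0.48 (SE 0.04, adjusted p = 3.12e-08). Pes1 and Fbl, which act in ribosomal RNA maturation, and Cad, which begins pyrimidine synthesis, changed by -0.49, -0.48 and -0.56.

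All 13 mitochondrially encoded mRNAs rose, with a median of 0.82, and 12 of them rose in all 4 lines. Their median GC content was 37.1%, and with offsets 8 were higher and 2 lower, with a median of 0.18. Their summed share was 1.1%, 1.4% and 1.72% of counts at 4 h (lowest, median, highest) and 2.5%, 2.9% and 3.92% at 24 h. mt-Atp6, of the ATP synthase, rose from 1000, 1430 and 1730 CPM to 3190, 3800 and 6220, a difference of 1.56 (SE 0.06, adjusted p = 5.65e-12), or 0.87 with offsets. mt-Co1 and mt-Co2, of cytochrome c oxidase, rose by 1.22 and 0.94, and mt-Nd4, of complex I, by 0.92. The tRNA mt-Tc rose by 2.14 (SE 0.08, adjusted p = 3.1e-12), but the mitochondrial tRNAs did not rise as a group. Of 19 tested, 7 were higher (36.8%) and 9 lower (47.4%).

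No circadian clock gene both passed the test and reached 2-fold over all lines. Of 21 tested, 8 were higher (38.1%) and 3 (Bhlhe41, Bhlhe40 and Nr1d1) lower (14.3%), with a median of 0.29. Among all tested genes 31.7% were higher and 30% lower. With offsets 11 clock genes were higher and 2 lower, and with library sizes alone 10 and 2. Nr1d2, which encodes the repressor REV-ERB beta, rose from 36.9, 40.6 and 49.3 CPM to 61.9, 75.9 and 85 without overlap, a difference of 0.82 (SE 0.05, adjusted p = 1.57e-09). Per3 and Per2, repressors of the loop, rose by 0.85 (SE 0.11, adjusted p = 7.08e-06) and 0.80 (SE 0.10, adjusted p = 3.93e-06). Tef, a PAR-bZIP output factor, rose by 0.59 (SE 0.09, adjusted p = 2.25e-05). In ATMko, Per3, Per2 and Tef did not pass the test, at 0.12, 0.29 and 0.03, against 1.03, 1.08 and 0.82 in wtATM. The interaction test gave adjusted p = 1.54e-05, 0.00104 and 5.9e-08. It takes all lines together and is not a test of ATMko against wtATM.

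Cry1 rose by 0.36 (SE 0.08, adjusted p = 0.00117) and Cry2 by 0.25 (SE 0.09, adjusted p = 0.0196), the second not called without wtATMIN replicate 2 at 4 h (0.22). Nr1d1, REV-ERB alpha, changed by -0.34 (SE 0.11, adjusted p = 0.0108), a call lost with offsets (-0.19) and with library sizes alone (-0.24). Per1 was at -0.06 (SE 0.05, adjusted p = 0.331) and at 0.31 with offsets (adjusted p = 0.00012). Arntl, the activator of the loop, was at -0.16 (SE 0.10, adjusted p = 0.171) over all lines and moved in opposite directions in single lines: -0.38 in wtATM, 0.34 in ATMko, -0.30 in wtATMIN and -0.37 in ATMINko. Dbp, another output factor, was at 0.29 (SE 0.20, adjusted p = 0.222), with 0.65 in wtATM, -0.88 in ATMko, 0.32 in wtATMIN and 0.82 in ATMINko; with offsets it was at 0.90 (adjusted p = 0.000343). Without ATMko replicate 2 at 4 h, both passed the test over all lines, at -0.25 for Arntl and 0.43 for Dbp. Arntl also passed with all 32 samples and as the mean of the line contrasts (-0.18 in each), and Dbp with no filter on low counts (0.30) and as that mean (0.23). With 2 times, these values give no phase or period.

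Genes of the contractile cytoskeleton, many of them targets of serum response factor (SRF), fell in part. Of 20 tested, 0 were higher and 12 lower (median -0.41), and 1 and 10 with offsets. Acta1, skeletal alpha-actin, fell from 37.3, 46.6 and 55.2 CPM to 6.69, 9.92 and 12.5 without overlap, a difference of -2.22 (SE 0.08, adjusted p = 3.49e-12). Myh9, non-muscle myosin heavy chain IIA, changed by -1.09 (SE 0.04, adjusted p = 2.53e-12) and Tagln, transgelin, by -1.19 (SE 0.13, adjusted p = 2.82e-06). Srf itself changed by -0.69 (SE 0.06, adjusted p = 1.68e-08), but by 0.39 (adjusted p = 6.22e-05) with offsets, so its direction depends on that choice. Of 22 targets of the YAP and TAZ coactivators, 10 were lower and 3 (Tgfb2, F3 and Myof) higher, with a median of -0.35; Crim1, Lats2, Ptpn14 and Asap1 changed by -0.76, -0.65, -0.44 and -0.38. With offsets 7 were lower and 4 higher. In wtATM 9 of these targets rose and 7 fell (median 0.15), against medians of -0.28 in ATMko, -0.30 in wtATMIN and -0.42 in ATMINko. Opposite directions in at least 2 lines were called for 8 of the 22 targets and for 8 of the 20 contractile genes, beside 9.66% of all tested genes.

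Of 26 immediate-early and AP-1 genes, 12 were lower and 6 higher (median -0.25), and 9 and 8 with offsets (-0.15), where 14 of the 18 called genes were called alike. Jun changed by -0.66 (SE 0.05, adjusted p = 4.68e-09), and its relatives Fosl2 and Maff by -0.46 and -0.87. Jund, a short gene of high GC content, went from 60.9, 119 and 208 CPM to 17, 35.3 and 60.7 and changed by -1.75 (SE 0.09, adjusted p = 1.56e-10), but by -0.08 with offsets, where it was not called. Fos, named after its values were seen, rose from 0.678, 1.64 and 2.16 CPM to 1.67, 4.51 and 15.1, a difference of 1.88 (SE 0.24, adjusted p = 4.08e-06).

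Ogn, Omd and Aspn, which encode the small leucine-rich proteoglycans osteoglycin, osteomodulin and asporin, were among the largest rises called in all lines. The 3 genes lie side by side on chromosome 13 at chr13:49608046-49624501, chr13:49582462-49592822 and chr13:49544443-49567565 (GRCm38, GENCODE M21). Ogn was at 1.84, 19.4 and 59.9 CPM at 4 h and 6.91, 150 and 386 at 24 h, a difference of 2.62 (SE 0.32, adjusted p = 1.72e-05), with 2.04 in wtATM, 1.82 in ATMko, 4.26 in wtATMIN and 1.96 in ATMINko. Omd rose by 2.23 (SE 0.30, adjusted p = 1.18e-05) and Aspn by 2.69 (SE 0.30, adjusted p = 3.27e-06). Abi3bp, another matrix protein, rose from 0.194, 3.69 and 11.5 CPM to 1.2, 23.6 and 190, a difference of 3.19 (SE 0.38, adjusted p = 9.4e-06). The times overlapped for these 4 genes, but within each line both 24 h values were above both 4 h values. Other proteoglycan genes of this kind, looked up after the values were seen, were not called higher in all lines. Dcn, decorin, was at 1.00 (SE 0.32, adjusted p = 0.0169) over all lines but at 0.38 with offsets, where it was not called, and Lum, lumican, rose by 2.20 in ATMko and 4.58 in wtATMIN but was at or below 0.0646 CPM in wtATM and went from 0.168 and 0.594 CPM to 0.118 and 0.124 in ATMINko.

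Of 37 matrix and collagen genes as a whole, 12 were higher and 5 lower (Col1a1, Col1a2, Loxl1, Loxl2 and Fbln2), with a median of 0.11, and 18 and 4 with offsets; the 32.4% that were higher stood beside 31.7% of all tested genes. Col1a1, the main chain of type I collagen, fell from 3430, 5560 and 12600 CPM to 1600, 3910 and 7010, a difference of -0.72 (SE 0.07, adjusted p = 3.46e-07). Loxl2, a collagen cross-linking enzyme, and Fbln2, fibulin 2, changed by -0.86 and -0.40. The lines did not move together: 25 of the 37 rose and 8 fell in wtATMIN, 7 rose and 21 fell in ATMko, and 22 genes were called in opposite directions in at least 2 lines, as were 9.66% of all tested genes.

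Proteases and inflammatory mediators held a few large rises. Of 20 matrix proteases and inhibitors 8 were higher and 3 (Adamts5, Plaur and Adamts1) lower, and 9 and 2 with offsets. Without offsets these were 40% and 15%, beside 31.7% and 30% of all tested genes. Mmp13, a collagenase, was at 0, 0.16 and 0.555 CPM at 4 h and 0.0577, 0.696 and 12.9 at 24 h, and the high values were those of wtATMIN, 11.8 and 12.9 CPM at 24 h against 0.191 and 0.349 at 4 h. Serpinb2, an inhibitor of plasminogen activators, went from 0.493 and 0.526 CPM to 3.87 and 2.55 in ATMko and was at 0 in every library of wtATMIN and ATMINko; its call over all lines was lost as the mean of the 4 lines (1.68). Plau, urokinase, rose by 0.67 (SE 0.07, adjusted p = 4.65e-07) and its receptor Plaur changed by -0.58 (SE 0.08, adjusted p = 7.01e-06). Of 29 inflammatory targets of NF-kB, 9 were higher and 7 lower, with a median of 0.00, against 10 and 4 with offsets and 11 and 4 with library sizes alone. The 31% higher and 24.1% lower without offsets were near or below the shares of all tested genes, 31.7% and 30%. The chemokine genes Cxcl5 and Cxcl1 rose by 2.18 (SE 0.18, adjusted p = 2.29e-08) and 1.82 (SE 0.16, adjusted p = 2.3e-07), with Cxcl1 at -0.16 in ATMko. Cxcl5 went from 12.1 and 11.8 CPM to 62.9 and 59.6 in wtATMIN and was at or below 1.38 CPM in the other lines. Nfkbiz, an inducible regulator of the pathway, rose by 0.80 (SE 0.10, adjusted p = 2.83e-06). Il6, named after its values were seen, rose from 0, 0.027 and 0.4 CPM to 0.0638, 0.328 and 2.78, a difference of 2.89 (SE 0.41, adjusted p = 1.27e-05). Rela, the transactivating subunit, changed by -0.38 (SE 0.05, adjusted p = 2.72e-06) and by -0.04 with offsets, where it was not called.

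Sterol synthesis separated the lines. Of 25 genes, 23 fell and 0 rose in wtATMIN (median -0.70) and 23 fell and 0 rose in ATMINko (-0.73). In wtATM 8 rose and 10 fell (0.04), and in ATMko 14 rose and 5 fell (0.21). With library sizes alone the balance in wtATM turned to 11 rises and 6 falls (0.16). Over all lines 13 were lower and 1, Ebp (0.24), higher, and all 25 passed the interaction test. With offsets the medians were -0.01 in wtATM, 0.10 in ATMko, -0.79 in wtATMIN and -0.79 in ATMINko. Srebf2, the transcription factor that drives the pathway, changed by -0.57 (SE 0.06, adjusted p = 2.03e-07), and Mvk, mevalonate kinase, by -0.82.

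Genes of the unfolded protein response moved in another direction in ATMko than in the other lines. Of 18 genes, 10 rose and 2 fell in ATMko (median 0.16), while 13 fell in wtATM, 11 in wtATMIN and 16 in ATMINko, with 1 rise in each. With library sizes alone 11 rose and 0 fell in ATMko, and the rises in wtATM, wtATMIN and ATMINko were 3, 4 and 2 beside 11, 11 and 13 falls. The median in ATMko was 0.26 with offsets, and 17 of the 18 passed the interaction test. Manf, a secreted stress factor, changed by -0.70 (SE 0.09, adjusted p = 9.67e-06) over all lines, and the chaperone genes Hyou1 and Dnajb11 by -0.40 and -0.35. Dnajb9, the 1 higher gene, changed by 0.63 (SE 0.10, adjusted p = 3.24e-05), and by 0.20 with offsets, where it was not called. Of 20 heat shock chaperone genes 14 were lower and 1, Chordc1 (0.36), higher, which was at -0.34 with offsets. The counts were 16 and 0 with offsets and 13 and 3 with library sizes alone; Hsp90ab1, Fkbp4, Stip1 and Bag3 changed by -0.44, -0.68, -0.35 and -0.32. Of 33 amino acid stress genes, 19 were lower and 4 (Slc7a11, Cth, Slc7a3 and Cebpg) higher, and 12 and 3 with offsets. Slc7a11, the cystine transporter, rose by 0.70 (SE 0.05, adjusted p = 1.28e-09), while Slc7a5, a leucine transporter, and Aars, alanyl-tRNA synthetase, changed by -0.55 and -0.62. Cebpb changed by -1.93 (SE 0.17, adjusted p = 2.43e-07) and by -0.25 with offsets, where it was not called.

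Growth factor and stress signalling genes gave single large changes. Over all tested genes 31.7% were higher and 30% lower. The shares higher and lower were 11.8% and 41.2% in the IGF axis and 15% and 25% in the BMP and TGF-beta list. They were 17.2% and 37.9% among NRF2 targets and 26.8% and 36.6% among p53 targets. In the IGF axis, Igf1 rose from 0.0582, 1.45 and 2 CPM to 2.34, 2.98 and 8.39 without overlap, a difference of 1.82 (SE 0.28, adjusted p = 2.89e-05), and its receptor Igf1r fell from 78.2, 115 and 148 to 31.4, 49 and 73.7, also without overlap, a difference of -1.22 (SE 0.06, adjusted p = 9.99e-11). The receptor adaptors Irs1 and Irs2 changed by -0.59 and -1.26; of 17 genes in the list 2 (Igf1 and Igfbp2) were higher and 7 lower, with the same counts with offsets. Among 20 genes of the BMP and TGF-beta response, 3 (Tgfbi, Id2 and Tgif1) were higher and 5 (Nog, Smad7, Id4, Smad6 and Smurf1) lower, 4 and 4 with library sizes alone, and 4 and 5 with offsets. Smad7, an inhibitor of the pathway, changed by -1.15 (SE 0.11, adjusted p = 3.44e-07), Nog, which encodes the BMP antagonist noggin, by -1.69 (SE 0.25, adjusted p = 1.96e-05), Smurf1, a ubiquitin ligase, by -0.42 and Tgif1, a corepressor, by 0.78. Of 29 NRF2 targets 11 were lower and 5 higher (Nfe2l2, Aldh3a1, Slc7a11, Prdx1 and Gstm2), but 9 and 10 with library sizes alone and 11 and 9 with offsets; Prdx1, peroxiredoxin 1, rose by 0.73 (SE 0.04, adjusted p = 1.07e-10), and Gsr and Txnrd1, glutathione and thioredoxin reductases, changed by -0.71 and -0.41. Of 41 p53 targets 11 were higher and 15 lower (median -0.10, but 0.01 with library sizes alone), and 8 and 13 with offsets, where 16 of the 26 called genes were called alike; Zmat3, Epha2, Phlda3 and Bbc3 changed by -0.89, -0.60, -1.03 and -1.43, the last at -0.19 with offsets, where it was not called. Of 27 FOXO and growth arrest genes 9 were higher and 9 lower (33.3% each, beside 31.7% and 30% of all tested genes), 8 and 8 with offsets, and 10 and 3 with library sizes alone; among them were Ccng2 at 0.56, Hbp1 at 0.54 and Foxo3 at -0.41.

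Among the other largest rises in all 4 lines, Nanog, a pluripotency factor in stem cells, was at 1.01, 1.47 and 2.46 CPM at 4 h and 3.34, 7.86 and 12.3 at 24 h, without overlap, a difference of 2.20 (SE 0.17, adjusted p = 1.17e-08). Nanog has pseudogene copies, so the origin of its reads is uncertain. Mettl7a3, a methyltransferase-like gene, and Pp2d1, a phosphatase-like gene, rose without overlap by 2.27 (SE 0.15, adjusted p = 2.31e-09) and 2.30 (SE 0.13, adjusted p = 3.02e-10). Nlrp2, of the NOD-like receptor family, rose by 2.57 (SE 0.31, adjusted p = 4.58e-06). Zfp979, a zinc-finger gene, rose by 2.51 (SE 0.23, adjusted p = 7.76e-08). Both have close relatives that may share reads. Zfp979 went from 6.84 and 6.71 CPM to 32.4 and 37.3 in ATMko. It was at or below 1.61 CPM in wtATM, 0.304 in wtATMIN and 0.372 in ATMINko, so its rises there rest on few reads.

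Among the largest falls outside the histones and non-polyadenylated RNAs was Rbm3os, annotated antisense to the gene of the cold-shock protein RBM3. It was at 40, 48 and 54.6 CPM at 4 h and 1.61, 3.02 and 3.38 at 24 h, a difference of -4.10 (SE 0.10, adjusted p = 3.74e-14). The library kit does not mark strand, so reads from the overlap with Rbm3 cannot be assigned to one gene; Rbm3 itself was at -0.106 (SE 0.0449, adjusted p = 0.0502), and at -0.494 with offsets (adjusted p = 1.76e-07). The gene a, agouti, whose annotated span on chromosome 2 also covers other genes, went from 16.4, 19 and 27.4 CPM to 0.638, 1.43 and 2.11, a difference of -3.83 (SE 0.16, adjusted p = 9.57e-12). Ahnak, a giant scaffold protein, and Zfhx3, a large homeobox factor, were named after their values were seen and fell without overlap. Ahnak went from 86, 114 and 228 CPM to 4.53, 9.44 and 41.4, a difference of -3.39 (SE 0.20, adjusted p = 1.29e-08). Zfhx3 went from 124, 171 and 225 CPM to 17, 27.1 and 32.2, a difference of -2.71 (SE 0.07, adjusted p = 5.8e-14). Among 10 nuclear long non-coding RNAs 7 were higher and 2 (Malat1 and Snhg3) lower, and 5 and 2 with offsets; Malat1 changed by -1.35 (SE 0.09, adjusted p = 1.47e-09), without overlap, and the small nucleolar RNA hosts Snhg5 and Snhg6 by 0.74 and 0.57.

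The change with time differed between lines in 7839 genes (44.2%) by the interaction test on 3 degrees of freedom. The change in ATMko differed from that in wtATM in 2388 genes (13.5%), 1308 of them (7.38%) with a higher value in ATMko and 1080 (6.09%) with a lower one. The change in ATMINko differed from that in wtATMIN in 3798 genes (21.4%), 1578 (8.91%) with a higher value in ATMINko and 2220 (12.5%) with a lower one. In 1712 genes (9.66%) at least 2 lines were called in opposite directions, and 1711 of these passed the interaction test. Knock-out and wild type are 1 line each, so a difference between them cannot be told apart from a difference between lines.

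The 6 genes with the smallest interaction p among those with opposite calls were Acta2, Col2a1, Col3a1, Sned1, Gap43 and Ankrd1. Acta2, smooth muscle alpha-actin, was at 205 and 203 CPM at 4 h and 651 and 644 at 24 h in wtATM, and at 176 and 163 and then 34.3 and 37.7 in ATMko. Its log2 differences were 1.67 in wtATM, -2.23 in ATMko, -1.35 in wtATMIN and 0.08 in ATMINko (interaction adjusted p = 1.28e-23), the last with an adjusted p of 0.275. The change in ATMko minus that in wtATM was -3.90 (adjusted p = 5.04e-24).

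Col2a1, the cartilage collagen, fell in 3 lines and rose in wtATMIN, from 67 and 80.1 CPM to 266 and 259, with -2.92 in wtATM, -2.86 in ATMko, 1.83 in wtATMIN and -3.60 in ATMINko (interaction adjusted p = 5e-23). In ATMINko it went from 41.6 and 48 CPM to 4 and 3.34. Col3a1, of type III collagen, rose in wtATMIN from 83.5 and 82.5 CPM to 525 and 520, with 0.75 in wtATM, -0.31 in ATMko, 2.65 in wtATMIN and 0.48 in ATMINko (interaction adjusted p = 1.05e-20). The fall in ATMko, the only one, was at -0.11 with offsets (adjusted p = 0.0392) and not called with offsets and a replicate block together (-0.11). Sned1, an extracellular matrix glycoprotein, rose in wtATMIN from 50.6 and 45.9 CPM to 797 and 863 and fell in ATMINko from 30.3 and 34.8 to 25.5 and 22.4, with 1.12 in wtATM, 0.67 in ATMko, 4.10 in wtATMIN and -0.44 in ATMINko (interaction adjusted p = 2.97e-21); the ATMINko call was lost with offsets, with or without the block (-0.09 in each).

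Gap43, a growth-cone protein of neurons, fell in wtATMIN from 119 and 126 CPM to 10 and 8.74, with 0.28 in wtATM, 0.57 in ATMko, -3.70 in wtATMIN and -1.69 in ATMINko (interaction adjusted p = 8.22e-21). Its call in wtATM, with an adjusted p of 0.0238, was lost without wtATM replicate 1 at 24 h (0.14), replicate 1 at 4 h (0.30) or replicate 2 at 4 h (0.26), with a replicate block (0.27) and with DESeq2 (0.28). Ankrd1, a YAP target, fell in wtATMIN from 124 and 112 CPM to 16.3 and 16.8 and rose in ATMko from 226 and 208 to 311 and 317, with 0.11 in wtATM, 0.54 in ATMko, -2.83 in wtATMIN and -0.48 in ATMINko (interaction adjusted p = 9.52e-21).

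**Figure D5:**
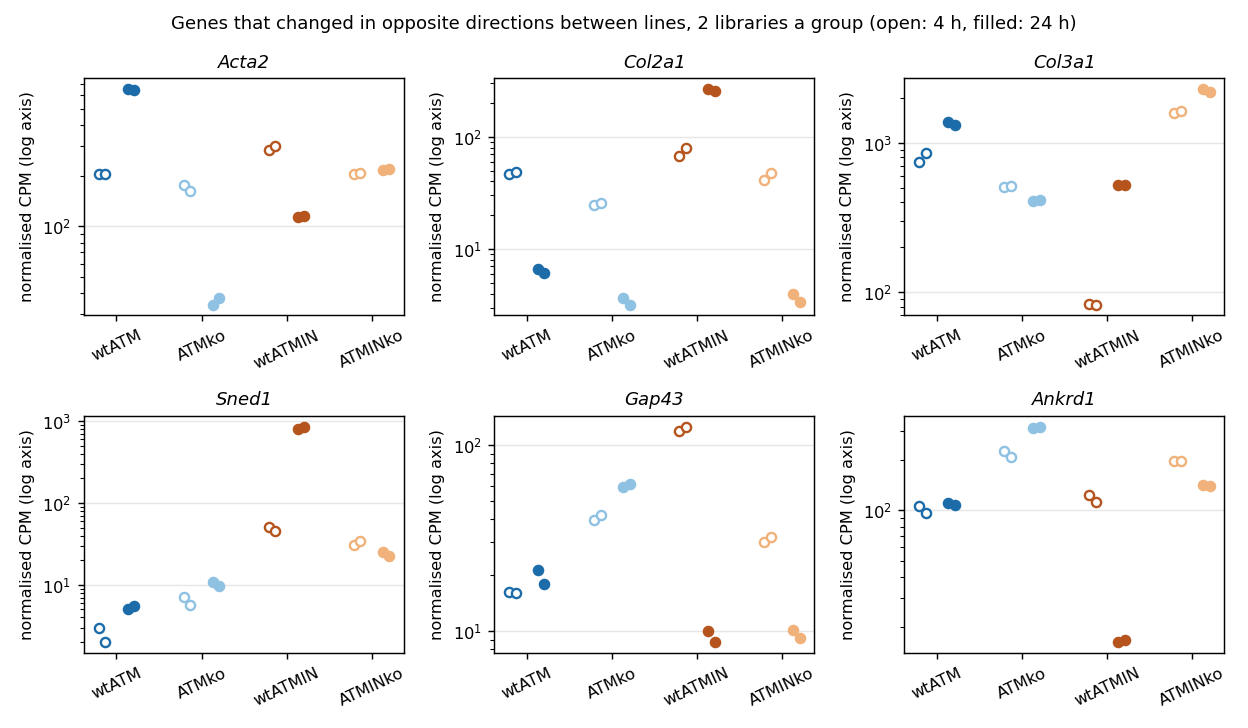
Normalised CPM (log axes) of Acta2, Col2a1, Col3a1, Sned1, Gap43 and Ankrd1 in each DMSO library by line; open points are 4 h, filled points 24 h, 2 libraries a group. Acta2 rises to 651 CPM in wtATM and falls to 34.3 in ATMko, and Col2a1 rises to 266 in wtATMIN and falls to 3.34 in ATMINko.

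Dynll1, the dynein light chain gene that ATMIN is known to activate, fell in ATMINko. It was at 49.8 ± 1.82 CPM (SD, n = 2) at 4 h and 29.1 ± 1.12 at 24 h in ATMINko, against 208 ± 21.8 and 195 ± 5.94 in wtATMIN. Its log2 differences were 0.19 in wtATM, 0.11 in ATMko, -0.09 in wtATMIN and -0.77 in ATMINko (interaction adjusted p = 2.27e-08), and ATMINko differed from wtATMIN by -0.68 (adjusted p = 7.53e-06). The small rise in wtATM (adjusted p = 0.0148) was not called without wtATM replicate 1 at 24 h (0.19), replicate 2 at 24 h (0.19) or replicate 2 at 4 h (0.16). Atm rose over all lines by 0.33 (SE 0.08, adjusted p = 0.00157), and Atmin was at -0.11 (SE 0.08, adjusted p = 0.227).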

How the data were processed

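RNA was measured by sequencing in 32 fibroblast libraries (TRIzol RNA, TruSeq RNA v2 kit, per the labels' protocols), of which the 16 DMSO libraries were compared. The deposited table holds whole-number read counts per gene, not normalised by the authors. The submitters' processing notes name build mm10, Bowtie2 2.4.0, TopHat2 2.0.13 and DESeq2 1.6.3; the counting program is not given in the sources used here. Samples were grouped by their labels, and the column names were matched to them. Of 39017 gene identifiers, 37693 matched GENCODE M21, and GC content was available for 98% of tested genes.

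Genes were filtered by group with filterByExpr and tested with edgeR 4.0.16 (quasi-likelihood, TMM, robust; R 4.3.3) at a Benjamini-Hochberg adjusted p of 0.05, once with the line as an additive factor and once with 8 groups for single lines, the interaction and the knock-out contrasts. The 16 aphidicolin libraries (1 µM) were fitted in the same way. A standard error is the log2 difference divided by the square root of F. Alternatives were RLE size factors, library sizes alone, no filter, DESeq2 1.42.0, a replicate block, all 32 samples, the mean of the 4 line contrasts and each library left out. GC and length offsets (splines with 5 degrees of freedom), protein-coding genes only and a crossed block were added after the data were seen.

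The comparison and the gene lists were chosen with earlier results of these data known. Named genes were the 12 largest rises and 12 largest falls called alike in all lines, the 6 with the smallest interaction p among those with opposite calls, up to 4 members of each list by p, and the targeted and clock genes, all without clone names and with a mean log2 CPM of at least 1; some genes that the rule named are not reported here. On simulated counts for 17410 genes, 192 of 200 genes changed by 1 on the log2 scale over all lines were recovered, with 16 false calls. The simulation gave all lines the same change, with less spread than the additive fit had in the data (common biological coefficient of variation 0.123). These rates therefore do not carry over to that fit. Counts limit precision for low genes, and sequenced reads without molecular identifiers are not independent molecules.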

Additional observations from a re-analysis of the deposited data

Results flagged for a closer look

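The change with time went in opposite directions, by calls in at least 2 lines, in 1711 genes that also passed the test of a difference between lines (edgeR's interaction test). Among named genes these were Acta2 (adjusted p = 1.28e-23), Col2a1 (5e-23), Sned1 (2.97e-21), Gap43 (8.22e-21), Ankrd1 (9.52e-21) and Col3a1 (1.05e-20), whose values by line are given above. Dynll1 (2.27e-08), Arntl (0.000304) and Dbp (9.4e-05) met the same conditions.

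Markers of other cell types met them too. Pparg, the regulator of fat cell formation, was at -2.32 in ATMko and 1.35 in wtATMIN (adjusted p of the interaction = 3.57e-11), and Cebpa, which acts with it, at -1.13 and 1.96 (4.11e-10). The falls of Cebpa in ATMko and ATMINko were not called with GC and length offsets (-0.21 and -0.19), nor with a replicate block added (-0.21 and -0.20), so its opposite directions depend on that choice; the fall in ATMINko was also lost without its replicate 2 at 24 h (-0.62) or replicate 1 at 4 h (-0.71). Fabp4, a fatty acid carrier of fat cells, was at -0.59 in wtATM and 1.04 in ATMko (4.36e-05). Its fall in wtATM was lost with library sizes alone (-0.47), with all 32 samples (-0.58) and without wtATM replicate 1 at 24 h (-0.39) or at 4 h (-0.33), and its fall in ATMINko with library sizes alone (-0.12), DESeq2 (-0.25), all 32 samples (-0.24) or without replicate 1 at 24 h (-0.19) or replicate 2 at 4 h (-0.20). Flt1, a receptor for vascular growth factor, was at 0.94 in wtATM and -2.61 in wtATMIN (2.5e-13). Sox2, a factor of stem and neural cells, was at 0.40 in wtATMIN and -1.55 in ATMINko (5.29e-10). The part of other cells in these differences was not tested.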

How the results depend on the processing

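Every count of called genes stayed within 1.5 times its reported value under each alternative and with each library left out. Over all lines the count was 10548 with DESeq2, 11507 with no filter on low counts, 12009 with all 32 samples, 10227 with GC and length offsets and 10562 to 10816 with 1 library left out. The counts for ATMko minus wtATM ran from 1664 to 2773, and those for ATMINko minus wtATMIN from 2800 to 4323. With the offsets 2 named genes changed direction: Per1 to 0.31 and Srf to 0.39, with and without the replicate block; the cause was not tested. With a replicate block the counts were 9627 over all lines, 6265 for the interaction, 1639 and 2812 for the knock-out contrasts, and 8813 over all lines with offsets. Deviations of libraries with the same number correlated at 0.0228 in wtATM, -0.0667 in ATMko, -0.228 in wtATMIN and -0.00886 in ATMINko (13836 genes). With 2 libraries a group each line gives only 1 such value, which cannot show whether the numbers pair the samples. With the numbers of wtATMIN crossed, 9802 genes were called over all lines. The call of Col3a1 over all lines was lost with the block (0.86) and in 12 fits without 1 library (0.63 to 0.90). Left with 1 library, a group was assumed to vary like the others.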
